A study of Mus musculus with 6 samples.

Results

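The replication-dependent histone genes were examined in cultured muscle satellite cells (SCs) of wild-type (WT) and *Ltf*-knockout (*Ltf*-KO) mice. Members were the rows whose gene name was H2ac, H2bc, H3c or H4c followed by a number, H1f1 to H1f5, or an older Hist1h to Hist4h name. This rule took 64 of the 55416 rows of the expression table: 5 genes of linker histone H1, 18 of H2A, 17 of H2B, 12 of H3 and 12 of H4. Histone genes under other names, among them *H2aw* and *H2bu2*, were not matched and are in none of the member sums. The SCs came from hind leg muscle, were sorted by flow cytometry and were grown for 4 days in serum with basic fibroblast growth factor, with no other treatment, and 3 libraries were made for each genotype. The mice were adult, and the *Ltf*-KO mice lacked exons of the lactoferrin gene in every tissue, after CRISPR-Cas9 editing of C57/BL6N zygotes. Neither the labels nor the methods say whether the libraries came from separate mice, so the p-values below measure the spread between these libraries, which may be technical.

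Replication-dependent histones package newly made DNA. H2A, H2B, H3 and H4 form the core of the nucleosome, and H1 binds the linker DNA between cores. Their genes lie in clusters, have almost no introns, and are transcribed mainly in S phase under the control of cyclin E and the coactivator NPAT. Their mRNAs are unusual in that they end after a conserved stem-loop rather than in a poly(A) tail. The stem-loop is bound by SLBP, and the cut behind it is guided by the U7 small nuclear RNP. Libraries selected by oligo(dT) lose such RNAs, whereas libraries depleted of ribosomal RNA keep them. How RNA was selected for these libraries is not given in the sources used here; the labels name only total RNA. In bulk samples fewer cells of a type and less RNA per cell cannot be told apart.

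The deposited values were TPM, the number of transcripts of a gene scaled to a common library total. TPM corrects for transcript length, so levels of different genes can be set side by side where the annotated length is that of the RNA. The depth of the libraries is unknown, since TPM keeps no read number. The columns summed to between 993650 and 994356 TPM, and 12828 to 12951 genes per library had at least 1 TPM. *Ltf* itself was at 0.12, 0.02 and 0.02 TPM in WT and at 0.02, 0.03 and 0 TPM in *Ltf*-KO SCs, too low in both genotypes to check the labels. The 8 satellite cell and myoblast markers summed to 2172 to 2471 TPM. All 3 lists of endothelial, fibro-adipogenic and immune markers were low in every library, with sums of 4.29 to 9.13, 4.37 to 10.5 and 0.09 to 0.63 TPM. Schwann cell markers summed to 9.91 to 18.8 TPM, erythroid markers to 9.35 to 12.9 TPM and smooth muscle and pericyte markers to 409 to 594 TPM, nearly all of it *Acta2*, which cultured myoblasts also express.

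The stem-loop was looked for in the annotated transcripts of the members (GENCODE M21, build GRCm38, matched to the files by Ensembl identifier), as 16 bases with a stem of 6 base pairs and a loop of 4 bases. The stem had to start with GG and end with CC, with G-T pairs allowed. The loop had to read TNTN, where N is any base. It was found in 42 of the 64 models, between 21 and 58 bases behind the stop codon. Of 21838 other coding genes, 378 (1.73%) held a match anywhere in a transcript. The 22 models without it included 15 that stop at the end of the coding region and so do not cover the place where it would lie. The same holds for *H2ac10* and *H2ac12*, which end 1 and 2 bases behind the stop codon. *H2ac14* is annotated as a pseudogene without a coding region, and it stays in the H2A counts and sums. The stem-loops of the highest members of each type are given here, since they are the feature that separates these mRNAs from others. Letters are DNA, 5′ to 3′, with the stem-loop in capitals.
*H1f2*: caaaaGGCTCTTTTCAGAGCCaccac
*H2ac19* and *H2ac18*: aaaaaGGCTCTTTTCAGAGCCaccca
*H2bc8*: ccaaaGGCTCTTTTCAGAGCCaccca
*H3c3*: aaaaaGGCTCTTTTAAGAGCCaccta
*H3c8*: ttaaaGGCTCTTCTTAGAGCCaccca
*H4c9*: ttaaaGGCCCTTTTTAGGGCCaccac
*H4c17*: ctaaaGGCCCTTTTCAGGGCCatc
The form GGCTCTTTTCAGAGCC was shared by 24 members of H1, H2A, H2B and H3 and by no H4 gene. The H4 genes instead carried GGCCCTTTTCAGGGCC in 6 members, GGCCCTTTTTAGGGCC in 2, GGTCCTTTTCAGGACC in 2 and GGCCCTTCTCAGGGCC in 1. The stem thus opened with GGCTCT in every H1, H2A, H2B and H3 member in which it was found, and with GGCCCT or GGTCCT in every such H4 member. The opening GG was a condition of the search, so only the later bases could differ.

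Summed over all 64 members, the replication-dependent histone genes reached 249, 256 and 261 TPM in WT and 263, 286 and 267 TPM in *Ltf*-KO SCs, or 0.0265% of the table. All 3 *Ltf*-KO sums lay above the 3 WT sums, with means of 255 ± 5.81 and 272 ± 12.2 TPM (SD, n = 3), a ratio of 1.07. H4 supplied 31.5% of the member total, H2B 23.7%, H1 20.6%, H2A 17.6% and H3 6.63%. The level was uneven within the types. *H1f2*, *H2bc4*, *H4c9* and *H4c17* alone made up 62.1% of the total, and the other 60 genes together averaged 99.9 TPM.

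Of the 64 members, 5 averaged 10 TPM or more, 24 averaged 1 to 10 TPM and 35 averaged under 1 TPM across the 6 libraries, and the median member was at 0.853 TPM. The 4 genes *H2ac1*, *H2bc1*, *H2ac21* and *H2ac23* were listed at 0 in all 6 libraries, and 27 members were listed at 0 in at least 1. Listing at 0 was most frequent among H2A genes (11 of 18) and H2B genes (9 of 17), and was seen in 4 of 12 H3 and 3 of 12 H4 genes and in no H1 gene.

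**Figure D1:**
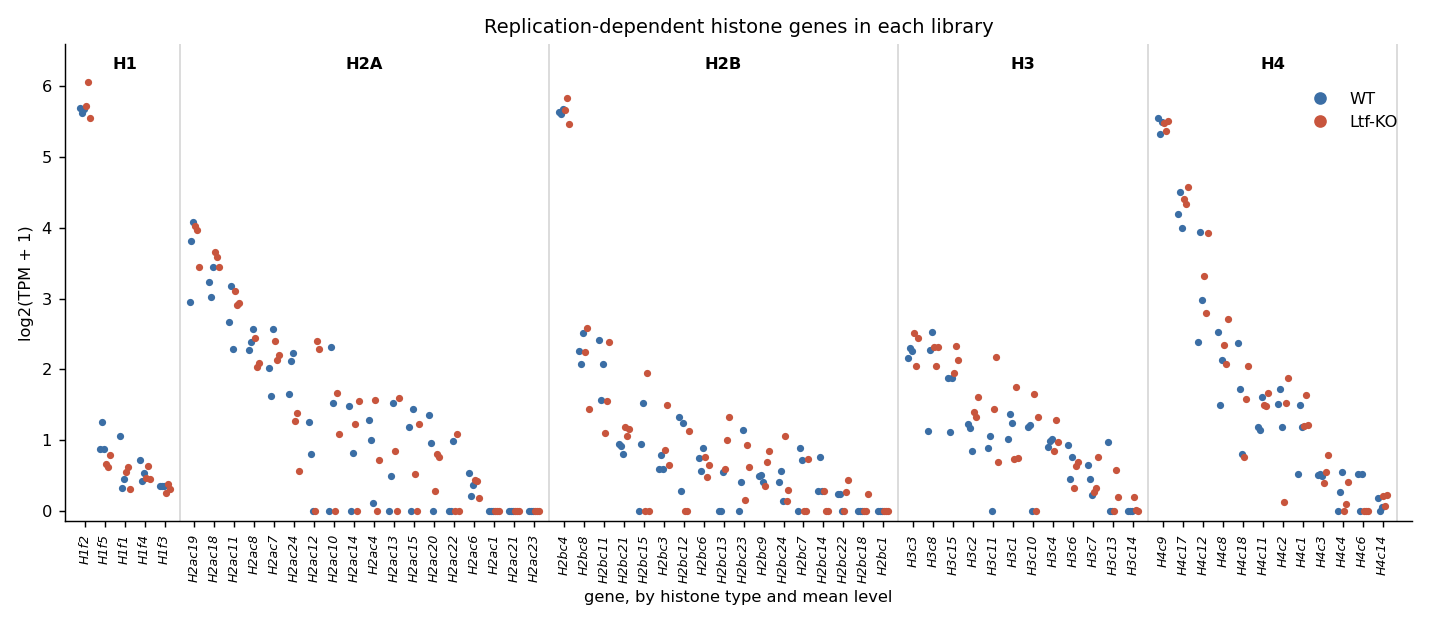
TPM of the 64 replication-dependent histone genes on a log2(TPM + 1) axis, ordered by histone type and mean level, with 1 point per library (blue WT, red *Ltf*-KO). A single gene stands far above the rest of its type in H1 (*H1f2*, 52.2 TPM) and H2B (*H2bc4*, 49.2 TPM), H4 is led by *H4c9* at 43.0 TPM and *H4c17* at 19.4 TPM, and no H3 gene exceeds a mean of 3.91 TPM.

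The 3 leading genes have longer annotated stretches behind the coding region than the other members above 10 TPM. *H1f2* (GENCODE M21 Hist1h1c, chr13:23738808-23740367 on the plus strand of GRCm38, 1 exon) has an annotated transcript of 1560 bases, in which 840 bases follow the stem-loop and a poly(A) hexamer lies 26 bases before the end. *H4c9* (Hist1h4i, chr13:22040636-22041362, minus strand, 1 exon) has 330 bases behind its stem-loop and a hexamer 21 bases before the end. *H2bc4* (Hist1h2bc, chr13:23684199-23692908, plus strand) is one of the members with more than 1 exon, and its 742 bases behind the stop codon hold no stem-loop. *H4c17* (Hist1h4m, chr13:21811746-21812147, plus strand) ends 3 bases behind the stem-loop. The annotated ends of *H1f2* and *H4c9* are given as the last 30 bases, 5′ to 3′, with the hexamer in capitals.
*H1f2*: ttctAATAAAaagcgtttagttttcattca
*H4c9*: tctgtttacATTAAAagtattctatgctaa

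A hexamer AATAAA or ATTAAA within 50 bases of the transcript end was present in 10 members, which ranged from 0.0267 to 52.2 TPM and held 40.9% of the member total, with *H1f2* and *H4c9* far above the other 8, which reached 3.97 TPM at most. The 54 members without one held 59.1%. The 22 members whose model ends at most 60 bases behind the stem-loop held 28.2% of the total, and the 16 with over 300 bases behind it held 39.6%. The medians ran the other way, with 1.55 TPM for the first set and 0.468 TPM for the second, since *H1f2* and *H4c9* gave 95.2 TPM and the remaining 14 genes of the second set lay between 0.0267 and 2.81 TPM. The table gives 1 value per gene, so it does not show which of the annotated ends the RNAs used. TPM corrects for the length of the model, so an RNA that ends at the stem-loop of a long model would be listed too low. The sets were defined on GENCODE M21 models. The TPM values were computed on build GRCm39, whose models may differ from these in length. The part of model length in the medians was not tested. The part of RNA selection in these levels was not tested.

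**Figure D2:**
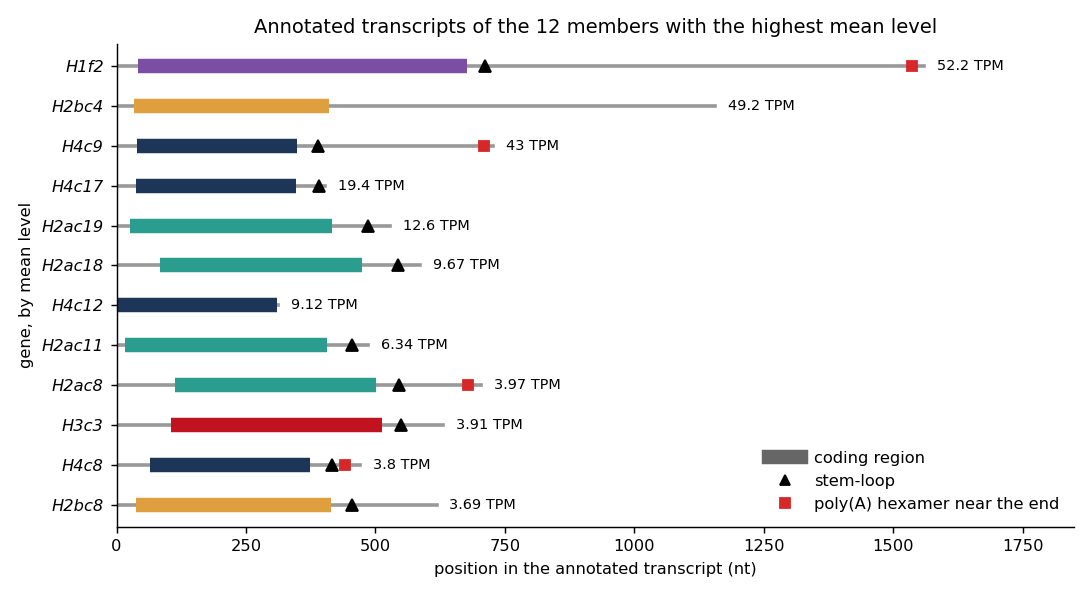
Annotated transcripts (GENCODE M21) of the 12 members with the highest mean level, drawn to scale from the transcript start, with the coding region as a thick bar, the stem-loop as a triangle and a poly(A) hexamer within 50 bases of the end as a red square. *H1f2* and *H4c9* have a long stretch between stem-loop and hexamer, *H2bc4* has no stem-loop in its model, and *H4c12* covers the coding region only.

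Of the members, 54 lie on chromosome 13, between bases 21715763 and 23934851 of GRCm38, and hold 89.7% of the member total. The other 10 lie on chromosome 3, between 96219865 and 96270132, and hold 10.3%. In the RefSeq promoter table (GRCm38.p6, a window around each gene start), 57 members were found. The octamer ATTTGCAT, bound by Oct-1, was present on either strand in 6 of 17 H2A and 6 of 14 H2B promoters and in no promoter of H1, H3 or H4, and in 1.7% of 32793 other promoters. The windows of neighbouring H2A and H2B genes can overlap. The same octamer was thus counted for both types in *H2ac1* and *H2bc1*, in *H2ac8* and *H2bc8*, and in *H2ac12* and *H2bc12*. CCAAT was present in every H1, H2A, H2B and H3 promoter found but in 3 of 11 H4 promoters, and in 37.3% of the others. TATAAA was present in 34 of 57 member promoters (59.6%) and in 13.5% of the others. CCAAT and TATAAA were also counted on either strand. In *H2bc7*, *H2bc12*, *H2bc15*, *H2bc22* and *H2ac8*, TATAAA lay only on the opposite strand, where the window overlaps that of the neighbouring H2A or H2B gene. The same TATAAA was thus counted for both neighbours.

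Between genotypes, no member differed at an adjusted p under 0.05. Of the 64 members, 29 averaged 1 TPM or more and were tested (1 H1, 8 H2A, 4 H2B, 8 H3 and 8 H4), which is 45.3% of them against 23.4% of all rows. In the limma test on log2(TPM + 1), fitted across 12956 genes with Benjamini-Hochberg adjustment, 0 of the 29 were called, and the background was 0.0% of all genes, with a lowest adjusted p of 0.999 among the members and 0.181 among all genes. At an unadjusted p under 0.05 stood 2 members against 3.78% of all genes. *H2ac24* was lower, where 1.78% of all genes were lower at this threshold, and *H2ac18* was higher, where 2.01% were. The 3 libraries of each genotype did not overlap in 5 of the 29 members (17.2%), against 8.46% of all genes tested. The median log2 fold change (*Ltf*-KO minus WT) was 0.19 over the tested members, 20 of them with a positive and 9 with a negative value, and 0.011 over all genes. Without WT library 1 the median of the members came to 0.036.

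**Figure D3:**
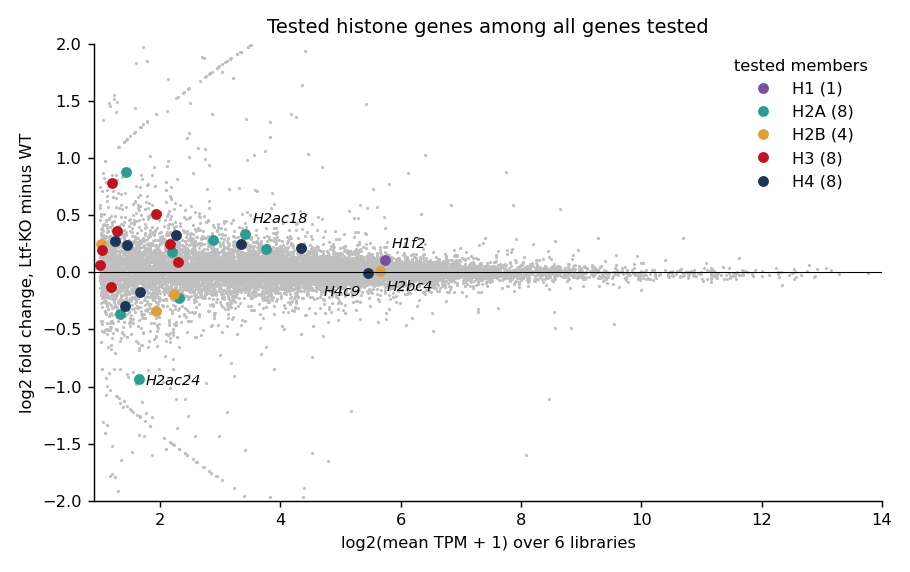
Log2 fold change (*Ltf*-KO minus WT, on the log2(TPM + 1) scale) against log2(mean TPM + 1) for all 12956 genes tested (grey) and the 29 tested members (coloured by histone type). The vertical axis ends at 2 in either direction, which leaves out 44 genes, none of them members. *H1f2*, *H2bc4* and *H4c9* lie near 0, and *H2ac24* is the lowest of the members.

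The linker histone type rested on *H1f2*, whose protein is H1.2, one of the H1 subtypes of most somatic cells. *H1f2* was at 51.0, 48.3 and 50.4 TPM in WT and at 51.8, 65.8 and 46.1 TPM in *Ltf*-KO SCs. The genotypes overlapped, and *Ltf*-KO library 2 stood above the other 5. The log2 fold change was 0.11 with a standard error of 0.12 (adjusted p = 0.999), and it became -0.029 without that library. The remaining subtypes were below 1 TPM on average and were not tested. *H1f5* was at 0.84, 1.38 and 0.84 TPM in WT and at 0.58, 0.53 and 0.73 TPM in *Ltf*-KO SCs, so that its groups did not overlap. *H1f1* ranged from 0.24 to 1.08 TPM, *H1f4* from 0.34 to 0.65 TPM and *H1f3* from 0.19 to 0.3 TPM, and each overlapped between genotypes. The H1 sum was 52.2 ± 1.64 TPM in WT and 56.3 ± 10.3 TPM in *Ltf*-KO SCs (SD, n = 3).

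The H2A members were led by a pair of near-identical genes on chromosome 3, with means of 12.6 and 9.67 TPM. *H2aw*, left out by the name rule, had a mean of 11.1 TPM, between those of the pair. *H2ac19* (Hist2h2aa2, chr3:96239749-96240276, minus strand) was at 6.74, 13.1 and 15.9 TPM in WT and at 15.4, 14.6 and 9.95 TPM in *Ltf*-KO SCs. *H2ac18* (Hist2h2aa1, chr3:96245497-96246082, plus strand) was at 8.38, 7.15 and 9.88 TPM in WT and at 11.7, 10.97 and 9.95 TPM in *Ltf*-KO SCs. *H2ac19* overlapped between genotypes, and *H2ac18* did not, though its highest WT and lowest *Ltf*-KO values were 9.88 and 9.95 TPM. The log2 fold change of *H2ac18* was 0.33 with a standard error of 0.12 (limma unadjusted p = 0.0288, adjusted p = 0.999). Its unadjusted p was above 0.05 with the replicate number as a block and without WT library 1, WT library 2, *Ltf*-KO library 1 or *Ltf*-KO library 2. All 50-base windows of *H2ac19* and 89.4% of those of *H2ac18* recur in another gene, and predicted genes overlap both, so how reads were split between them is uncertain. Added together, a sum chosen after their values were seen, the pair was at 15.1, 20.2 and 25.8 TPM in WT and at 27.1, 25.6 and 19.9 TPM in *Ltf*-KO SCs, and the genotypes overlapped.

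*H2ac24* (Hist1h2ap, chr13:21833026-21833507, minus strand) was the member with the lowest p. It was at 2.15, 3.36 and 3.7 TPM in WT and at 1.42, 1.61 and 0.48 TPM in *Ltf*-KO SCs, so that every *Ltf*-KO value lay below every WT value. The log2 fold change was -0.93 with a standard error of 0.27 (limma unadjusted p = 0.0118, adjusted p = 0.999), and ranged from -1.1 to -0.68 when 1 library was left out. Of its 50-base windows, 93.1% recur in another gene, foremost *H2ac23*, which was listed at 0 in all 6 libraries. *H2ac11*, the third of the type by level, was at 5.34, 8.01 and 3.86 TPM in WT and at 7.65, 6.49 and 6.68 TPM in *Ltf*-KO SCs, which overlapped. Over all 18 genes, H2A was at 44.5 ± 6.76 TPM in WT and at 48.2 ± 2.24 TPM in *Ltf*-KO SCs, a log2 ratio of 0.12 that came to 0.005 without WT library 1 and to 0.22 without WT library 3. Of its 8 tested genes, 5 had a positive and 3 a negative log2 fold change, with a median of 0.19.

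H2B rested on *H2bc4*, with 48.8, 47.6 and 50.1 TPM in WT and 49.6, 56.0 and 43.3 TPM in *Ltf*-KO SCs. These values overlapped, and the log2 fold change was 0.015 with a standard error of 0.091 (adjusted p = 0.999). *H2bc8* followed at 3.79, 3.21 and 4.7 TPM in WT and at 3.74, 5.01 and 1.71 TPM in *Ltf*-KO SCs. *H2bc11* was at 4.32, 1.95 and 3.21 TPM in WT and at 1.14, 1.94 and 4.22 TPM in *Ltf*-KO SCs. Both overlapped, with the lowest value of each in an *Ltf*-KO library. *H2bc21*, on chromosome 3, was the only tested H2B gene whose groups did not overlap, at 0.93, 0.88 and 0.75 TPM in WT and at 1.27, 1.09 and 1.23 TPM in *Ltf*-KO SCs (log2 fold change 0.25, standard error 0.15, limma unadjusted p = 0.151). The H2B sum was 62.3 ± 3.69 TPM in WT and 62.8 ± 8.03 TPM in *Ltf*-KO SCs.

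H3 was the lowest type and the one whose sum differed most between genotypes. The 12 H3 genes summed to 15.1, 15.9 and 15.3 TPM in WT and to 19.1, 20.5 and 19.1 TPM in *Ltf*-KO SCs. The groups did not overlap, with means of 15.4 ± 0.407 and 19.5 ± 0.817 TPM (SD, n = 3) and a ratio of 1.26. The log2 ratio was 0.34 and stayed between 0.30 and 0.36 when 1 library was left out. No p-value was computed for a sum over members, and no single H3 gene passed the test, the lowest unadjusted limma p being 0.0706. Of the 8 tested H3 genes, 7 had a positive log2 fold change, with a median of 0.22. *H3c3*, the highest, was at 3.46, 3.95 and 3.8 TPM in WT and at 4.7, 3.14 and 4.43 TPM in *Ltf*-KO SCs, which overlapped. *H3c8* was at 1.19, 3.83 and 4.78 TPM in WT and at 3.96, 3.14 and 3.96 TPM in *Ltf*-KO SCs, and WT library 1 alone stood apart. *H3c15*, on chromosome 3, was at 2.69, 1.17 and 2.68 TPM in WT and at 2.86, 4.05 and 3.4 TPM in *Ltf*-KO SCs, and its log2 fold change was 0.51 (standard error 0.24.) *H3c15* and *H3c2* (0.8 to 1.33 TPM in WT, 1.5 to 2.05 TPM in *Ltf*-KO SCs) were the H3 genes tested whose groups did not overlap. *H3c11*, named after the values were seen, had the highest log2 fold change of the type, 0.78. It was at 0.85, 1.09 and 0 TPM in WT and at 1.71, 3.53 and 0.61 TPM in *Ltf*-KO SCs, which overlapped. Of its 50-base windows, 87.6% recur in another gene, against 63.5% for *H3c15*, 60.4% for *H3c2*, 54.1% for *H3c8* and 47.0% for *H3c3*. How reads were split between these genes is thus uncertain. The within-group coefficient of variation (CV) was 3.69% for the H3 sum and 15.7% to 90.2% for the tested H3 genes taken singly.

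H4 was the highest type. *H4c9* was at 46.2, 39.1 and 44.2 TPM in WT and at 43.6, 40.2 and 44.8 TPM in *Ltf*-KO SCs. It had the smallest within-group CV of the members above 10 TPM, 7.18%, and a log2 fold change of -0.0079 with a standard error of 0.075 (adjusted p = 0.999). *H4c17* was at 17.3, 21.7 and 14.9 TPM in WT and at 20.2, 19.3 and 22.9 TPM in *Ltf*-KO SCs, and its log2 fold change was 0.21 (standard error 0.14.) *H4c12* spread more widely than these, at 4.23, 14.4 and 6.91 TPM in WT and at 8.99, 5.94 and 14.3 TPM in *Ltf*-KO SCs. All 3 overlapped between genotypes. *H4c17* shares 89.8% of its 50-base windows with another gene, foremost *H4c18*. The H4 sum was 80.8 ± 4.59 TPM in WT and 85.4 ± 11.1 TPM in *Ltf*-KO SCs, and its log2 ratio was 0.08 with all libraries and -0.031 without *Ltf*-KO library 3.

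Across the types, the lowest H4 sum (76.1 TPM) lay above the highest H2B sum (72.0 TPM), and the lowest H2A sum (37.4 TPM) above the highest H3 sum (20.5 TPM). The ranges of H2B and H1 overlapped across libraries, as did those of H1 and H2A. Within each library the order was the same in 6 of 6, the H2B sum being 4.22 to 13.9 TPM above the H1 sum and the H1 sum 1.47 to 18.8 TPM above the H2A sum.

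**Figure D4:**
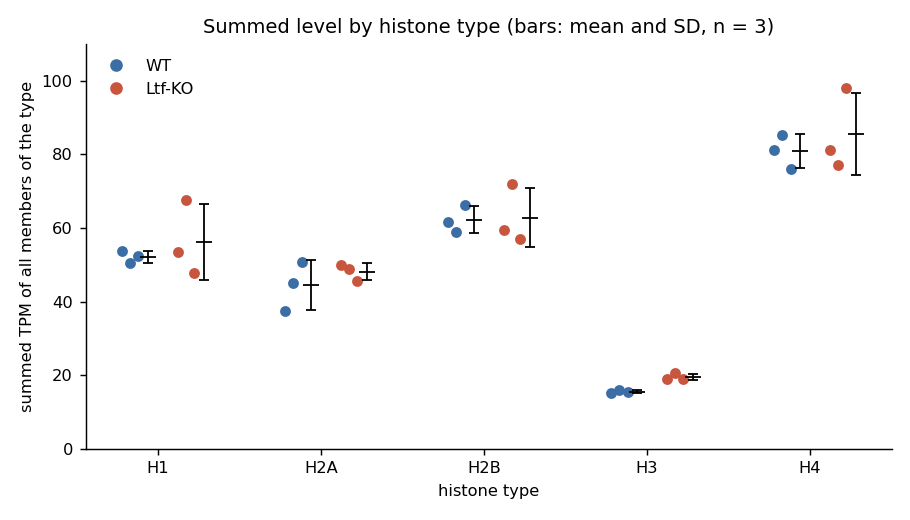
Summed TPM of the members of each histone type in the 6 libraries (blue WT, red *Ltf*-KO; black bars, mean and SD of 3 libraries). H3 is the type in which all 3 *Ltf*-KO sums, 19.1 to 20.5 TPM, lie above all 3 WT sums, 15.1 to 15.9 TPM.

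The spread between libraries of 1 genotype was wide for genes of this level. Among the 24 members at 1 to 10 TPM the median within-group CV was 35.0%, with a range of 9.14% to 105%, against 15.8% for all 4884 tested genes at this level. The 34 members that share at least 50% of their 50-base windows with another gene had a median CV of 50.3% (15 genes at 1 to 10 TPM), and the 30 members below that share one of 23.6% (9 genes). The share of identical sequence and the spread were set side by side only, and the part of read assignment was not tested.

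The replication-independent variants, which replace these histones outside S phase and whose mRNAs mostly carry poly(A) tails, were listed at far higher levels. How RNA was selected is unknown, so this gap in TPM need not be the gap in the cells. The part of RNA selection in it was not tested. The 11 variant genes summed to 2694 to 2901 TPM, or 9.63 to 11.6 times the sum of all 64 replication-dependent genes. *H2az1*, encoding H2A.Z, had a mean of 964 TPM, so that all 64 members together came to 0.255 to 0.3 of this single gene. *H3f3a* and *H3f3b*, which encode H3.3, had means of 649 and 523 TPM and together stood 55.7 to 81.4 times above the H3 sum. This ratio was 81.4, 76.1 and 74.2 in WT and 60.9, 55.7 and 60.8 in *Ltf*-KO SCs. It restates the difference of the H3 sum and is no second result. *H3f3a* and *H3f3b* together overlapped between genotypes, at 1231, 1210 and 1136 TPM in WT and 1160, 1139 and 1160 TPM in *Ltf*-KO SCs. The gap was smallest for the linker histones, where *H1f0* (H1.0) had a mean of 67.1 TPM against 54.3 TPM for the H1 sum. *H2ax*, the variant phosphorylated at DNA breaks, had a mean of 118 TPM and its mRNA is known to occur with either end. None of the 11 variants passed an unadjusted p under 0.05, and their median log2 fold change was -0.010.

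**Figure D5:**
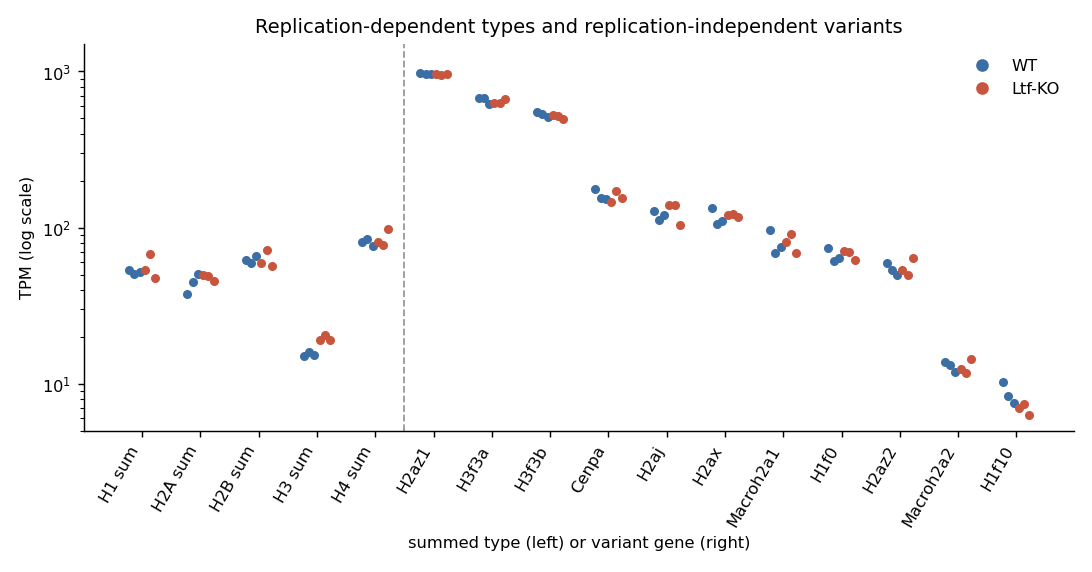
Levels of the 5 summed replication-dependent types (left of the dashed line) and of the 11 replication-independent variant genes (right) in each library, on a log TPM axis (blue WT, red *Ltf*-KO). *H2az1*, *H3f3a*, *H3f3b*, *Cenpa*, *H2aj* and *H2ax* lie above every sum, and the H3 sum lies lowest of the types.

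Other RNAs that normally carry no poly(A) tail were unevenly captured. A list of 16 such RNAs matched 15 rows, of which 8 were listed at 0 in all 6 libraries, among them *Rnu7*, the U7 RNA of histone 3′ end processing, and *Rny1* and *Rny3*. *Rpph1*, the RNA of ribonuclease P, was at 42.6, 24.97 and 48.3 TPM in WT and at 58.9, 68.8 and 42.6 TPM in *Ltf*-KO SCs, which overlapped. One row of *Rmrp*, the RNA of ribonuclease MRP, ranged from 0 to 8.54 TPM, and its other row was listed at 5.4 TPM in WT library 2 and at 0 elsewhere. *Rnu11* was listed at 74.2 TPM in *Ltf*-KO library 1 and at 0 in the other 5. The small nucleolar RNAs *Snora73b* and *Snora73a* ranged from 1.0 to 35.1 TPM and from 0 to 28.5 TPM, and both overlapped between genotypes. Of the 5 rows tested, none passed an unadjusted p under 0.05, and the median log2 fold change of the 5 was 0.73. Summed, the 15 rows were at 67.8 ± 14.5 TPM in WT and 120 ± 36.0 TPM in *Ltf*-KO SCs, with no overlap. *Rnu11* gave 74.2 TPM of the highest sum, 161 TPM. The sums of *Ltf*-KO libraries 2 and 3, 104 and 93.9 TPM, held no *Rnu11* and lay above the highest WT sum, 81.9 TPM. *Rn7sk* and *Rnu6atac* of the list had no row under the names searched.

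The genes that supply histone mRNA were expressed and showed no adjusted call. *Slbp*, the stem-loop binding protein, was at 56.0, 52.2 and 51.4 TPM in WT and at 60.2, 54.0 and 52.7 TPM in *Ltf*-KO SCs, which overlapped (log2 fold change 0.061). *Lsm10* and *Lsm11*, subunits of the U7 particle, had means of 19.9 and 3.04 TPM, and *Zfp473*, which binds the U7 complex, had a mean of 0.612 TPM and was not tested. *Npat*, the coactivator of histone gene transcription, was at 11.8 ± 0.245 TPM in WT and 12.03 ± 0.307 TPM in *Ltf*-KO SCs, and *Casp8ap2*, its partner in the histone locus body, was at 14.1 ± 2.83 and 14.7 ± 2.39 TPM. Of the 14 processing and decay genes tested, *Srrt*, whose product links the cap-binding complex to RNA processing, was lower at an unadjusted p under 0.05, at 157, 148 and 154 TPM in WT and 137, 144 and 136 TPM in *Ltf*-KO SCs (log2 fold change -0.14, standard error 0.040, limma unadjusted p = 0.0117). Of the 7 transcription genes, *Ccne2*, which encodes cyclin E2, was lower, at 35.3, 37.1 and 35.5 TPM in WT and 33.5, 30.6 and 30.5 TPM in *Ltf*-KO SCs (log2 fold change -0.18, limma unadjusted p = 0.0127). Neither gene overlapped between genotypes, and neither passed adjustment. The medians of these lists were 0.0058 and -0.076 on the log2 scale.

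Among the 20 histone chaperones, *Hira*, which deposits H3.3 outside replication, was lower at an unadjusted limma p of 0.0474 (44.8 ± 2.74 TPM in WT, 40.0 ± 2.32 TPM in *Ltf*-KO SCs), and the list's median log2 fold change was 0.0012. The replication-coupled chaperones overlapped between genotypes. *Nasp* was at 106 ± 5.59 and 107 ± 2.93 TPM, *Asf1b* at 56.1 ± 12.95 and 56.6 ± 5.69 TPM, *Chaf1a* at 29.5 ± 3.01 and 31.1 ± 2.59 TPM and *Chaf1b* at 27.3 ± 0.33 and 27.3 ± 1.52 TPM in WT and *Ltf*-KO SCs.

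As a measure of cells in S phase, 22 genes of DNA replication were set beside the members. They summed to 2280 to 2403 TPM, 8.01 to 9.64 times the sum of the members, and 17 of the 22 (77.3%) had a negative log2 fold change, against 44.3% of all genes tested, with a median of -0.040. The groups did not overlap in 5 of the 22 (22.7%, against 8.46% of all genes), and all 5, *Mcm2*, *Mcm5* and *Mcm6* of the replicative helicase, the sliding clamp *Pcna* and *Lig1*, were lower in *Ltf*-KO SCs, with log2 fold changes from -0.1 to -0.058. *Lig1*, the ligase that joins Okazaki fragments, was lower at an unadjusted limma p of 0.0394 (55.6 ± 1.64 TPM in WT, 51.6 ± 0.836 TPM in *Ltf*-KO SCs), and none passed adjustment. The ratio of the S phase sum to the member sum was 9.64, 9.22 and 8.74 in WT and 8.69, 8.01 and 8.53 in *Ltf*-KO SCs. The groups did not overlap, though 8.74 and 8.69 lay close together. The S phase sum itself overlapped, at 2403, 2358 and 2280 TPM in WT and 2286, 2290 and 2282 TPM in *Ltf*-KO SCs. The member sum that divides it was given above as without overlap, so the ratio is no second result. Whether the share of cells in S phase differed was not tested.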

How the data were processed

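The authors deposited TPM values for each gene and library, computed on build GRCm39 per the labels; the aligner, the quantification tool and the method of RNA selection are not given in the sources used here. Every sample column of the table was used. From the TPM values, log2(TPM + 1) was computed, genes that averaged 1 TPM or more across the 6 libraries were kept, and *Ltf*-KO was compared with WT across 12956 genes with limma 3.58.1 (lmFit and eBayes with a trend) in R 4.3.3, after the procedure had been tested on simulated data. Adjusted p-values are Benjamini-Hochberg values over all genes tested, and the threshold was 0.05. Fold changes on the log2(TPM + 1) scale understate those of low genes. Sums are of TPM over all members, tested or not. The within-group CV is the pooled SD of both genotypes over the mean.

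Transcript models and sequences came from GENCODE M21 (GRCm38) and promoters from RefSeq (GRCm38.p6), matched by identifier or symbol and not converted between builds. A 50-base window was called shared when it occurred in a transcript of another gene. Named genes were the 3 highest members of each type, H1f1 to H1f5, members at an unadjusted p under 0.05, chosen supply genes and up to 5 list genes at that threshold; other genes named for groups that did not overlap were chosen after their values were seen. The members and lists were chosen with earlier results of these data known. Alternatives were a pseudocount of 0.1, no filter, a mean of at least 10 TPM, quantile normalization, median-of-ratios scaling (factors 0.99 to 1.01), the replicate number as a block, and each library left out. Same-numbered libraries did not deviate together (correlations -0.041, -0.058 and -0.088), so the numbers were not taken as pairs.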

Additional observations from a re-analysis of the deposited data

How the results depend on the processing

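No member passed an adjusted p under 0.05 in the limma test with any alternative, and with all libraries and settings as reported 2 members passed at an unadjusted p under 0.05. Among genes that averaged 10 TPM or more, 0 of the members remaining passed the unadjusted threshold and 0 had groups that did not overlap, since only 5 members were then tested. With 1 library left out, the members at an unadjusted p under 0.05 numbered 1 to 3, with 1 without WT library 1 or *Ltf*-KO library 2. Those whose groups did not overlap numbered 5 to 8, with 8 without WT library 2 or *Ltf*-KO library 2, fewer libraries making overlap less likely. Over the 6 lists together (processing and decay, transcription, chaperones, variants, RNAs without a poly(A) tail and S phase), 4 of 79 tested genes (5.06%, against 3.78% of all genes) were at an unadjusted p under 0.05, namely *Srrt*, *Ccne2*, *Hira* and *Lig1*, and 2 to 8 with 1 library left out, with 2 without WT library 2 and 8 without WT library 3; the cause was not tested. The median log2 fold change of the members ranged from 0.036 (without WT library 1) to 0.25 in these fits and was 0.057 with no filter. With the replicate number as a block, the counts were 0 called, 2 at an unadjusted p under 0.05 and 5 without overlap, the 6 lists held 3 genes, and the median was 0.19, so the block changed no adjusted call. The 2 members were then *H2ac24* and *H3c11*, with *H2ac18* at 0.055 (unadjusted p, limma). *H2ac24* stayed under 0.05 without each library in turn, and *H2ac18* only without WT library 3 or *Ltf*-KO library 3, its unadjusted limma p otherwise lying between 0.067 and 0.091. The numbers are not known to pair the libraries.

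The summed types kept the direction of their log2 ratio under each alternative, except in these cases. H1 came to -0.047 without *Ltf*-KO library 2 and ranged to 0.21, H4 came to -0.031 without *Ltf*-KO library 3 and ranged to 0.15, and H2B ranged from -0.098 to 0.076 with 1 library left out, came to -0.0034 under quantile normalization and to -0.00034 over members of at least 1 TPM. H2A ranged from 0.005 (without WT library 1) to 0.22 (without WT library 3), H3 from 0.30 to 0.36 and the sum of all members from 0.055 to 0.12 with 1 library left out.

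The sign of single log2 fold changes, none of which passed adjustment, turned in some fits. Under quantile normalization *Chaf1b* came to -0.0091 and *H2az1* to 0.018, and under median-of-ratios scaling *Chaf1b* came to -0.0076. With 1 library left out the ranges that crossed 0 were -0.029 to 0.22 for *H1f2*, -0.13 to 0.43 for *H2ac19*, -0.075 to 0.11 for *H2bc4*, -0.44 to 0.14 for *H2bc8*, -0.18 to 0.52 for *H3c8*, -0.11 to 0.67 for *H4c12* and -0.076 to 0.042 for *H4c9*. Outside the members they were -0.14 to 0.19 for *Asf1b*, -0.057 to 0.21 for *Casp8ap2*, -0.010 to 0.14 for *Chaf1a*, -0.041 to 0.029 for *Chaf1b*, -0.021 to 0.11 for *H1f0*, -0.021 to 0.15 for *H2ax*, -0.18 to 0.050 for *Lsm10*, -0.24 to 0.032 for *Lsm11*, -0.017 to 0.058 for *Nasp* and -1.5 to 0.22 for *Rmrp*. TPM keeps no read number, so the counting error of the 35 members under 1 TPM is unknown, and a value listed at 0 may be a failed estimate.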
